A study of Rattus norvegicus with 3 samples.

Results

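Expression of 9 immediate-early and heat-shock genes was followed through the cell types of the rat thymus and across 2 ways of digesting the tissue: Fos, Fosb, Jun, Junb, Egr1 and Atf3 (immediate-early) and Hspa1a, Hspa1b and Dnajb1 (heat-shock). They were taken by name, and all 9 were among the 34034 genes listed in both droplet libraries. The thymi of both libraries were from Lewis rats, which are inbred, at an age of 8 weeks, with no genotype or treatment given. The stromal library held CD45-negative cells, which lack the surface protein of blood-derived cells. Liberase TH together with DNase I acted on its tissue for 25 min at 37 °C, EDTA at 2.5 mM followed for another 5 min, and CD45-positive cells were removed on magnetic columns and by flow sorting. The thymocyte library held cells released with collagenase D and DNase I, for which no time, temperature or sort is stated. Both were 10x Chromium libraries with cell labels deposited by the authors. Each protocol had 1 sample, so no test was made, and every interval below is a 95% interval for counting error only. Enzyme, digestion, depletion, sorting, library and depth differed together between the 2 protocols and cannot be told apart.

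Immediate-early genes are transcribed within minutes of a growth factor, receptor or stress signal, without new protein synthesis. Fos, Fosb, Jun and Junb code for the subunits that pair as the AP-1 transcription factor, Egr1 for a zinc-finger factor that in thymocytes follows T cell receptor signals, and Atf3 for a stress-induced factor of the same leucine-zipper class. Hspa1a and Hspa1b are the inducible Hsp70 chaperones and Dnajb1 their Hsp40 partner, and all are switched on by heat-shock factor 1 when proteins unfold. Warm enzymatic digestion of tissue is known to raise both groups.

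The stretch before the start site is printed for Egr1 and Junb, the members that follow the thymocyte stages, and for Dnajb1, a heat-shock member, so that their motif letters can be compared. Of the 9 members, 5 matched the RefSeq promoter table of GRCr8, and Fos, Jun, Atf3 and Hspa1b did not. Each line gives the 250 bases before the start site, 5′ to 3′ on the gene's strand. Egr1 lies at chr18:26736828-26737077 (plus strand), Junb at chr19:40080876-40081125 (plus strand) and Dnajb1 at chr19:41431142-41431391 (minus strand). Capitals mark matches, on either strand, to the CArG box (bound by serum response factor), the cyclic AMP element TGACGTCA or its core TGACG, the AP-1 element TGACTCA, the heat-shock pairs TTCNNGAA and GAANNTTC, CCAAT and TATAAA. Every TGACGTCA also counts as a TGACG.
Egr1: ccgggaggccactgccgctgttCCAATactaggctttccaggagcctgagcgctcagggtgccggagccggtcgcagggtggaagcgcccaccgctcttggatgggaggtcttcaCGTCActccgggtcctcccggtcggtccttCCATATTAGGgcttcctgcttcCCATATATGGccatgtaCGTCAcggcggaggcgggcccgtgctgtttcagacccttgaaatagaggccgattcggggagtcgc
Junb: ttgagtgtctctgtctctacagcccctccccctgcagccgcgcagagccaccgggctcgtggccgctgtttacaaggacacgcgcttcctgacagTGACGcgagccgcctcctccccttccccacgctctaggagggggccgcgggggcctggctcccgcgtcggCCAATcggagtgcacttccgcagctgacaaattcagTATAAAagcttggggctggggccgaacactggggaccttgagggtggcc
Dnajb1: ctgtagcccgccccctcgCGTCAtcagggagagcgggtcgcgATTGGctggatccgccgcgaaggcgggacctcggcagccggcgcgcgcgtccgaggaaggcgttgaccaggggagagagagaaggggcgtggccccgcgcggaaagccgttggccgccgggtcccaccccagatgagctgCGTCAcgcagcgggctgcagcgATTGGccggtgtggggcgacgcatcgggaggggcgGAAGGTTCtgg
The Egr1 window held 2 CArG boxes, at -105 to -96 and -83 to -74 from the start site, and 1.50% of 33469 promoter windows held any. It also held 2 TGACG cores, at -135 and -66, a match found in 18.2% of windows, and CCAAT at -228. The Junb window held TGACG at -155, CCAAT at -85 and TATAAA at -49, the last 2 being found in 34.0% and 12.9% of windows. The Dnajb1 window held GAANNTTC at -11 to -4, beside CCAAT at -208 and -46 and TGACG at -232 and -68. GAANNTTC was found in 7.23% of windows and TTCNNGAA in 7.48%. In the Fosb window only TATAAA matched, and in the Hspa1a window none of these letters matched. Only the first window listed for a gene was read. Whether it lies at the start site used in these cells was not tested, so a window without a match does not show that the gene lacks the element. TGACGTCA (1.59% of windows) and TGACTCA (4.05%) matched in none of the 5. A match is a description of the letters and not a measured site.

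The stromal library held 13226 annotated cells with 131624350 UMIs (molecular barcodes that stand for single RNA molecules), a median of 9087.5 per cell. The thymocyte library held 8546 annotated cells with 64440495 UMIs, a median of 3994. The median share of UMIs from mitochondrial ribosomal RNA was 1.11% and 4.43%. The libraries shared 38 cell barcodes, 28 of them annotated in both. Levels are CPM, the UMIs of a gene in 1000000 UMIs of a group of cells.

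Thymocytes were captured by both protocols, and in the stromal library all 9 members stood higher in them. The authors gave the label Thymocyte to 411 cells of the stromal library, and thymocyte labels to 8376 cells of the thymocyte library. Jun was at 992 CPM against 83.9, an 11.8-fold difference (95% interval 11.2 to 12.5). Fos was at 422 CPM against 71.9 (5.87-fold, 5.42 to 6.35), and Junb at 794 against 177 (4.49-fold, 4.24 to 4.75). Fosb was at 78.7 against 13.3 CPM, Egr1 at 188 against 24.0 and Atf3 at 34.4 against 0.177. All 6 immediate-early members were thus higher by more than counting error. Of the heat-shock members, Hspa1a was at 328 against 2.82 CPM, Hspa1b at 366 against 2.93 and Dnajb1 at 101.4 against 37.7 (2.69-fold, 2.29 to 3.14). Of the genes tested, those with a mean of at least 10 CPM over the 2 sides, 17.9% of 9357 were at least 2-fold higher in the stromal library, and 9 of 9 members were. Atf3, Hspa1a and Hspa1b passed that filter only through the stromal side, so they had to differ.

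The 411 cells differed in how much stromal RNA they held. The Hsp70 pair was higher in those with over 10 stromal UMIs, but did not rise steadily on either side of that limit. Of these cells, 73 carried over 10 UMIs of 18 stromal marker genes, with a median of 236 such UMIs and 11010 UMIs in all, and 338 carried at most 10, with a median of 2397 UMIs in all. The 73 cells held the thymocyte markers at 2455 CPM and the fibroblast markers at 27582 CPM, against 11280 and 887 CPM in the 338 cells. The 5 highest ratios over all named genes in the set of 411 belonged to Dcn, Col3a1, Mgp, Col1a2 and Ccl21, all genes of stromal cells. Summed over Hspa1a and Hspa1b, whose coding sequences are nearly identical so that reads can be split between them, the level was 1156 CPM in cells with 11 to 100 stromal UMIs and 1177 CPM in cells with over 100. It was 260 CPM in the 29 cells with no stromal UMI, 321 CPM at 1 to 2, 214 CPM at 3 to 5 and 164 CPM at 6 to 10. The summed immediate-early members lay between 2398 and 2760 CPM in all 6 bins, but single members did not stay level. From no stromal UMI to over 100, Jun fell from 1419 to 704 CPM and Junb from 963 to 710. Fos rose from 260 to 451 CPM, Egr1 from 91.1 to 313, Fosb from 26.0 to 147 and Atf3 from 0 to 73.5. The first of these bins held few UMIs: 7 of Egr1 (36.6 to 188 CPM), 2 of Fosb (3.15 to 94.1 CPM) and 0 of Atf3 (up to 48.0 CPM). Mesenchymal cells held the sum at 1920 CPM, and its source in each bin was not tested. The limit of 10 was chosen after seeing the data.

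**Figure D1:**
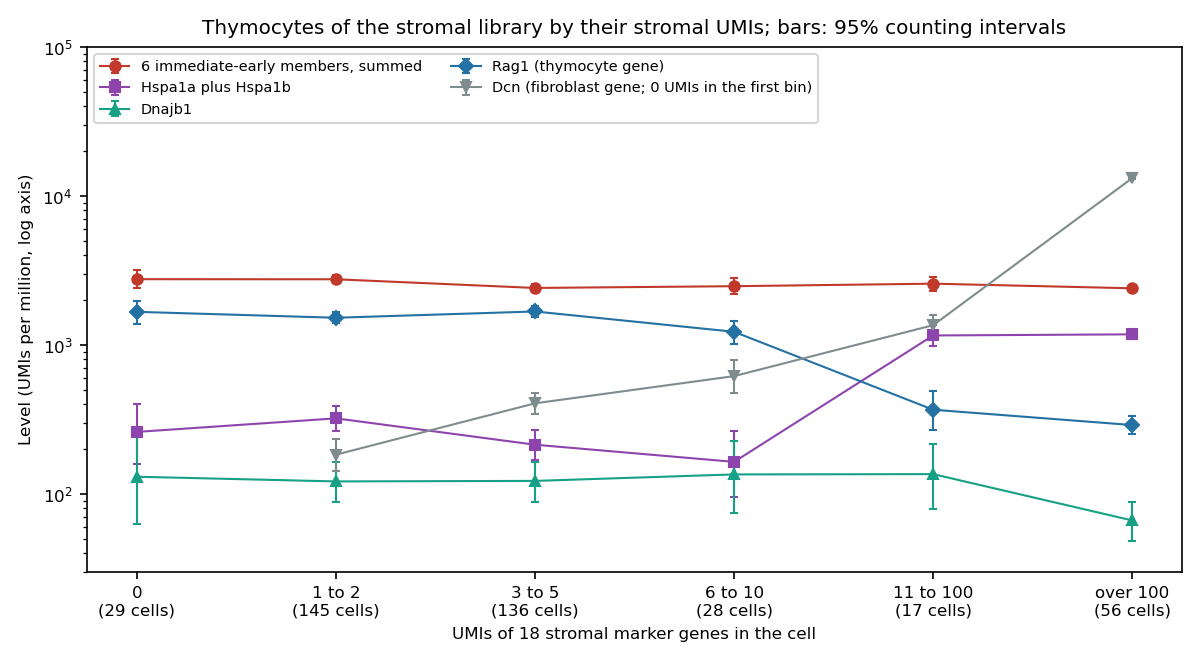
Levels (CPM, log axis) in the 411 thymocytes of the stromal library, binned by the UMIs of 18 stromal markers in each cell, with 95% counting intervals. The summed immediate-early members stay between 2398 and 2760, while Hspa1a plus Hspa1b rises from 164 in the fourth bin to 1156 in the fifth and Rag1, a thymocyte gene, falls from 1224 to 367. The sum covers Jun and Junb, which are lower in the last bin than in the first, and Fos, Fosb, Egr1 and Atf3, which are higher (not drawn singly).

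In the 338 thymocytes with few stromal UMIs, the AP-1 subunits were 10.3-fold to 12.0-fold above the double-positive thymocytes of the thymocyte library. That stage, labelled DP for cells carrying both CD4 and CD8, was taken because 247 of the 338 cells were assigned to it by their other genes. The rule recovered 86.6% of 4077 held-out cells of the thymocyte library. How well it recovers stages in the stromal library was not tested. Fos, which cannot pair with itself, was at 393 CPM against 32.6 in 5202 DP cells (12.0-fold, 10.5 to 13.8). Fosb, a close relative, was at 31.2 CPM against 2.91 (10.7-fold, 6.56 to 17.2). Jun, the AP-1 partner that also pairs with itself, was at 1222 CPM against 118 (10.4-fold, 9.65 to 11.2). All 3 sets of values stand far apart beside their counting intervals. The 338 cells mix stages, and in the 247 assigned to DP the ratios were 10.4 (Fos), 8.80 (Fosb) and 11.6 (Jun).

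Junb, which often opposes Jun on shared targets, was at 847 CPM against 81.9 (10.3-fold, 9.47 to 11.3). Its ratio was 4.98 (4.33 to 5.71) in the 247 cells assigned to DP alone, where the 338 cells mix stages. Egr1 was at 88.2 CPM against 16.8 (5.26-fold, 4.06 to 6.75). Atf3 had 4 UMIs in the 338 cells and 2 in the DP cells, too few for the filter. Its 34.4 CPM in the 411 cells came mostly from cells with over 10 stromal UMIs, which held 55 of 59 UMIs.

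Hspa1a was at 121 CPM against 1.64 (73.5-fold, 48.9 to 113) and Hspa1b at 134 CPM against 2.33 (57.6-fold, 40.4 to 83.3). Their sum, which does not depend on how reads were split, was at 254 CPM against 3.97 (64.2-fold, 49.2 to 84.5). Dnajb1, the co-chaperone, was at 124 CPM against 38.4 (3.22-fold, 2.61 to 3.94). The inducible Hsp70 pair was thus close to absent in DP cells of the thymocyte library, while Dnajb1 was present in both.

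Over all genes tested in this comparison, 8.14% of 8218 were at least 2-fold higher in the stromal library. Of the 5 members above 10 CPM on both sides (Fos, Jun, Junb, Egr1 and Dnajb1), 5 were. Fosb, Hspa1a and Hspa1b passed the filter only through the stromal side. Among 7760 named genes ranked by ratio, Hspa1a stood at 72, Hspa1b at 75, Fos at 126, Fosb at 134, Jun at 137, Junb at 138, Egr1 at 192 and Dnajb1 at 271. The ranks above them were led by Ccl21, Col3a1, Dcn, Ccl19 and Sparc, genes of stromal cells. The lowest were Srgap1, Rpph1, mt-Rnr1, Fcrla and H2ac23. The mitochondrial share differed with the library as well, with a median of 1.32% in the 338 cells and 5.22% in the DP cells. All 411 and 8376 cells were also split, each side at its own median share. The summed immediate-early ratio was 6.73 in cells at or below that median and 6.72 above it. Such a split does not match the 2 sides in mitochondrial share, so the part of that difference was not tested.

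**Figure D2:**
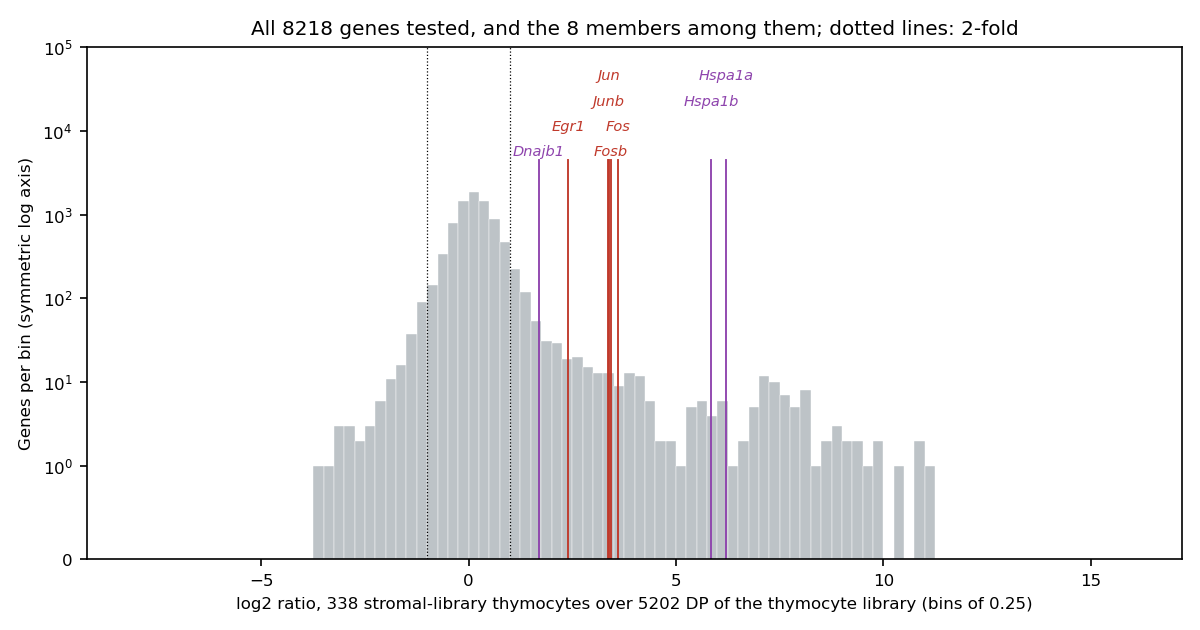
Number of genes per bin of the log2 ratio of the 338 stromal-library thymocytes over 5202 DP cells, for all 8218 genes tested, with the 8 members among them as lines. The members lie from 1.69 (Dnajb1) to 6.20 (Hspa1a), all to the right of the 2-fold line.

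**Figure D3:**
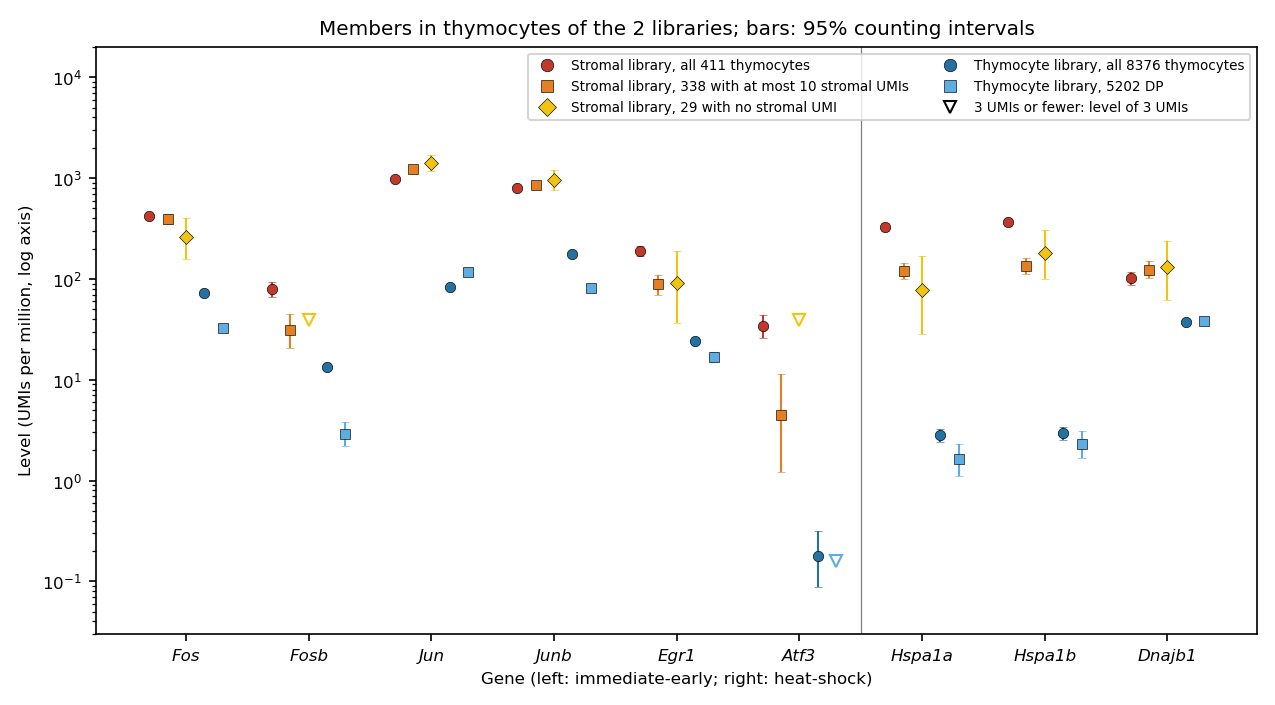
Level of each member (CPM, log axis) in 3 sets of stromal-library thymocytes and 2 sets of thymocyte-library thymocytes, with 95% counting intervals. For 8 of the 9 members the 338 cells lie above both sets of the thymocyte library by more than the counting intervals, and for Atf3 the DP set has 3 UMIs or fewer.

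Stromal RNA was measurable in these cells, and its level is set beside each member. Apoe was not used to choose the cells. It is not a gene of stromal cells alone, with 11883 CPM in mesenchymal cells and 13946 CPM in myeloid cells of the thymocyte library. In the 338 cells Apoe was at 748 CPM, 6.37% of its level over all annotated cells of the stromal library. S100a9, a neutrophil gene, was at 3.52%. The 18 markers used to choose the cells were at 3.88%. The members stood at 181% (Jun), 149% (Junb), 59.7% (Fos), 32.0% (Egr1), 16.7% (Fosb), 221% (Dnajb1), 19.6% (Hspa1a) and 17.2% (Hspa1b). Atf3, on 4 UMIs, stood at 3.48%. The markers' share was limited by the choice of cells. Whether the stromal RNA was free RNA or came with a second cell in the droplet was not tested.

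The 29 cells with no UMI of the 18 stromal markers also stood above DP cells for the abundant members. That choice did not leave them free of RNA of other cells. They still held Apoe at 508 CPM (39 UMIs) and S100a9 at 78.1 CPM (6 UMIs), against 8.19 and 0.58 CPM in DP cells. They held Jun at 1419 CPM (1165 to 1712), Junb at 963 CPM (757 to 1210), Fos at 260 CPM (159 to 402) and Hspa1a plus Hspa1b at 260 CPM (159 to 402). Against DP cells these are 12.1-fold, 11.8-fold, 7.98-fold and 65.7-fold. Over all 7926 genes tested in this comparison, 29.0% were at least 2-fold higher, and the median ratio was 1.42. Atf3 had no UMI in them, where 3 UMIs, the floor used here for a count of 0, would be 39.1 CPM.

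Other blood-derived cells of the stromal library give levels to set beside these thymocytes. In 89 B cells with at most 10 stromal UMIs, Hspa1a plus Hspa1b was at 27.0 CPM, against 254 CPM in the thymocytes. Jun was at 477 CPM against 1222, Junb at 157 against 847 and Fos at 104 against 393. In 403 myeloid cells Jun was at 978 CPM, Junb at 144, Fos at 271 and Hspa1a plus Hspa1b at 154 CPM, nearer the thymocytes for all but Junb. Over the whole labels, with no limit on stromal UMIs, B cell and Thymocyte did not differ in Hspa1a plus Hspa1b beyond counting error (708 and 694 CPM, 1.02-fold, 0.95 to 1.10). Apoe was at 159 CPM in those B cells, whose median was 11614 UMIs, against 748 CPM in the thymocytes.

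The ratios differed between assigned stages for Junb and Fos, and were alike in size for Jun. Cells assigned to DP (247) held Jun at 1366 CPM, 11.6-fold above thymocyte-library DP cells (10.7 to 12.6). Those assigned to DP-sig (27), the label that follows DP and is read here as signalled double-positive, held Jun at 1220 CPM, 11.2-fold above DP-sig cells (8.53 to 14.7). Junb was 4.98-fold higher in the first set (408 against 81.9 CPM) and 3.64-fold in the second (2910 against 799 CPM). Fos was 10.4-fold higher in the first and 3.72-fold in the second. There was no single direction over stages, with Fos at 13.6-fold (9.38 to 19.6) in 10 cells assigned to Immature CD4-1 and 4.50-fold in 28 assigned to Pre DP-sig, and Junb at 2.65-fold and 1.78-fold in those sets. Egr1 was 4.78-fold higher in the first, and in the second, on 7 UMIs, its ratio of 1.04 had an interval of 0.410 to 2.22. Hspa1a plus Hspa1b was 60.7-fold higher in cells assigned to DP, 97.9-fold in DP-sig (17 UMIs) and 39.7-fold in Pre DP-sig (30 UMIs). In the 10 cells assigned to Immature CD4-1 the pair had 1 UMI, 31.1 against 33.9 CPM, with no difference beyond counting error. With the thymocyte library weighted to the stages of the 338 cells, the summed immediate-early members were 6.04-fold higher against 10.3-fold over DP alone.

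Most single cells of the 338 held an immediate-early UMI, and few held one of the Hsp70 pair. Each cell was thinned to 1000 UMIs, which left 314 of the 338 cells and 8333 of the 8376. A UMI of at least 1 immediate-early member was found in 73.6% of the stromal-library thymocytes and 24.2% of the thymocyte library. At least 3 of the 6 were found in 10.2% and 0.5%. Hspa1a or Hspa1b was found in 14.0% against 0.4%, and no member at all in 21.0% against 73.0%. Before thinning, Jun was found in 68.6% of the 338 cells and in 23.0% of the DP cells, whose median depths were 2397 and 3205.5 UMIs.

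Genes of the same 2 programmes outside the members were higher in part. Of 37 other immediate-early genes, 28 passed the filter in the comparison of the 338 cells with DP cells. Of these, 22 were at least 2-fold higher and 0 lower, where 8.14% of all genes tested were higher and 2.12% lower. Their median ratio was 3.59, against 1.12 over all genes tested. The highest were Cebpb (22.3 against 0.58 CPM, 38.4-fold), Klf4 (40.2 against 1.37 CPM, 29.2-fold) and Gadd45b (211 against 22.4 CPM, 9.41-fold). Cebpb and Klf4, both counted among the 22, passed only through the stromal side. The lowest ratios were those of Sgk1 (0.99), Srf (1.06), which codes for serum response factor itself, and Maff (1.20).

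Of 34 other heat-shock genes, 27 passed, 10 of them at least 2-fold higher and 0 lower, with a median ratio of 1.84. The shares over all genes tested were again 8.14% higher and 2.12% lower. Serpinh1, a collagen chaperone of fibroblasts, had 26 UMIs (29.0 CPM) against 2. It is counted among the 10, but passed only through the stromal side and so had to differ. Next were Hsph1, an Hsp110 co-chaperone (616 against 118 CPM, 5.23-fold), and Hsp90ab1 (2010 against 389 CPM, 5.17-fold). The lowest were Dnajb6 (1.19), Cacybp (1.21) and Bag1 (1.24). In the comparison of all 411 cells 22 of 33 other immediate-early and 8 of 30 other heat-shock genes were at least 2-fold higher, where 17.9% of all genes tested were.

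Within the stromal library the immediate-early members were led by blood vessels and not by the connective tissue or epithelium. Over 18 labels of at least 50 cells, the summed level ran from 1037 CPM in TEC:mTEC2, medullary epithelial cells, to 8440 CPM in EC:vEC, endothelial cells. Next to EC:vEC stood vSMC/PC, smooth muscle cells and pericytes of vessel walls (5910 CPM), EC:capEC (5755 CPM) and EC:aEC (5254 CPM). All 4 exceeded each of the other 14 labels, whose highest was TEC:mimetic(goblet) at 3669 CPM. Below it came TMC3, a mesenchymal label, at 3247 CPM.

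Fos spanned a 28.7-fold range (22.9 to 36.5), from 86.8 CPM in TEC:mTEC2 to 2492 CPM in EC:vEC. The vSMC/PC label was close behind at 2343 CPM (1.06-fold, 1.03 to 1.10), and its order with EC:vEC turned with the mean of the cells' CPM and with thinning. Atf3 ran from 26.0 CPM in TMC2 to 631 CPM in EC:vEC, a 24.2-fold range (22.3 to 26.4) not apart from that of Fos beyond counting error. TEC:mTEC2 showed Atf3 at 169 CPM, above the label median of 152 CPM, while its Fos was lowest of all.

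Jun was highest in EC:vEC (2219 CPM), lowest in TMC2 (269 CPM), and high also in the thymocytes (992 CPM) and Myeloid (959 CPM), which differed by less than counting error. Junb was lowest in Myeloid at 178 CPM and highest in EC:vEC at 1823 CPM. Myeloid cells thus paired a high Jun with the lowest Junb and the lowest Egr1, 70.4 CPM. Egr1 was highest in EC:vEC at 673 CPM, just above EC:capEC at 632 CPM, and Fosb in EC:vEC at 601 CPM.

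The heat-shock members followed another order. Hspa1a was highest in capFb, fibroblasts, at 864 CPM and in TEC:early Pr, epithelial cells, at 853 CPM, which differed by less than counting error. Hspa1b was highest in TEC:early Pr at 1115 CPM, and both were lowest in Myeloid, at 170 and 124 CPM. EC:vEC stood 12th of 18 for Hspa1a at 482 CPM. The other vessel labels differed in this, with vSMC/PC at 822 and EC:aEC at 779 CPM of Hspa1a, above the label median of 597 CPM. EC:vEC was first for all 6 immediate-early members in summed counts, but not for Fos or Egr1 after thinning, nor for Atf3 with labels of at least 20 cells. Hspa1a ranged 5.09-fold and Hspa1b 9.0-fold over labels. Dnajb1 was highest in TEC:early Pr at 116 CPM and lowest in TMC2 at 27.8 CPM, a 4.16-fold range, and only 2 of 17 neighbouring labels in its order were further apart than counting error.

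**Figure D4:**
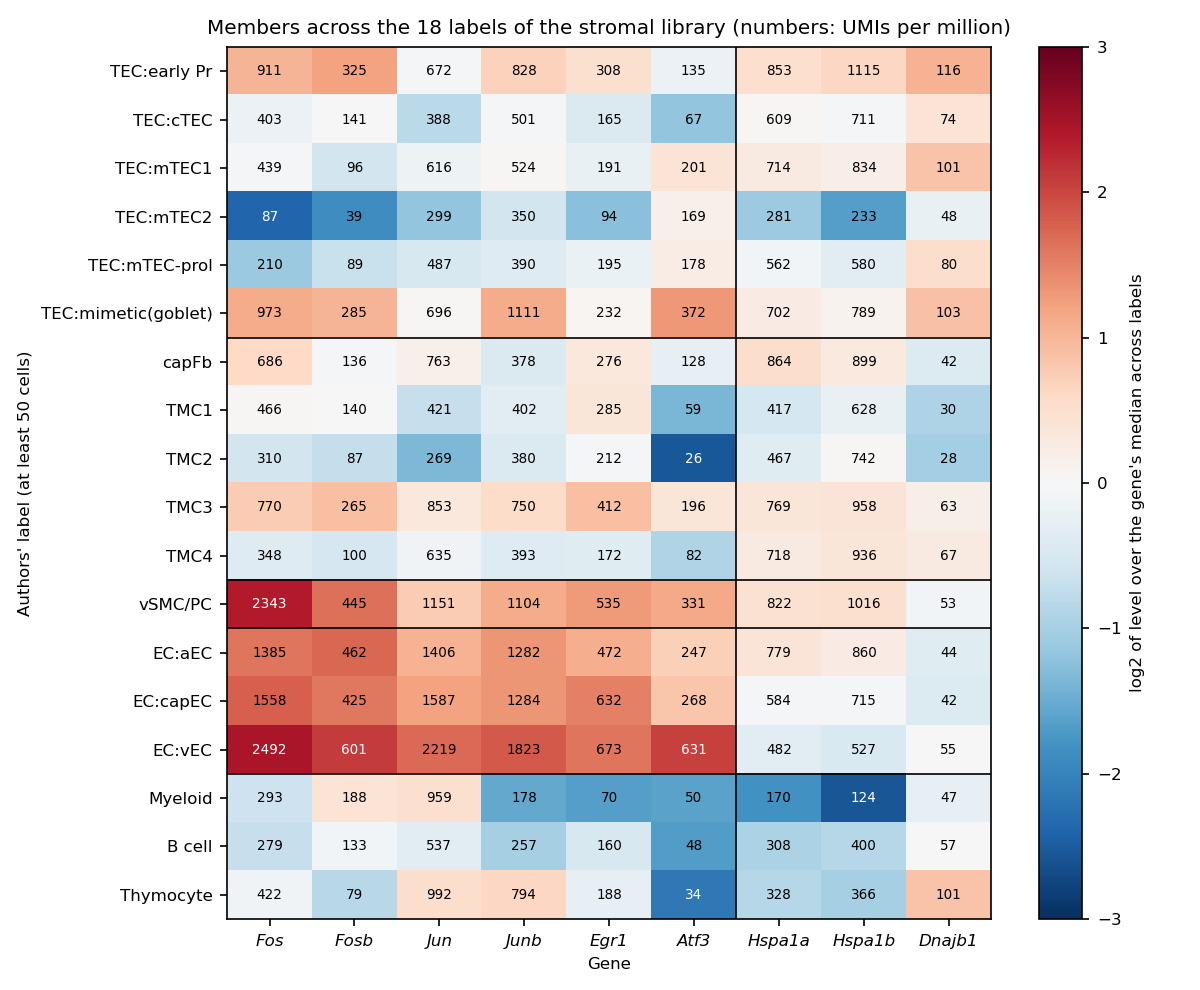
Levels of the 9 members (numbers, CPM) in the 18 labels of the stromal library with at least 50 cells, coloured by log2 of the level over the gene's median across labels. The 3 endothelial labels and vSMC/PC are high for the 6 immediate-early members, vSMC/PC is also high for Hspa1a (822) and Hspa1b (1016) while EC:vEC is below the median for both (482 and 527), and TEC:mTEC2 is low for Fos, Fosb, Hspa1a and Hspa1b.

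Summed by class, the 8216 mesenchymal cells (TMC and capFb labels) held less immediate-early RNA than either of the other classes. Against 1072 endothelial cells, 6 of 9 members were at least 2-fold lower, where 12.7% of 9658 genes were. Fos was at 482 CPM against 1922 (0.251-fold, 0.246 to 0.255), Jun at 529 against 1828, Junb at 435 against 1503, Fosb at 132 against 500, Egr1 at 259 against 635 and Atf3 at 83.7 against 414. The heat-shock members did not share this, with Hspa1a plus Hspa1b at 1427 against 1211 CPM (1.18-fold, 1.16 to 1.20) and Dnajb1 at 41.7 against 47.5 CPM. Of 33 other immediate-early genes that passed, 18 were at least 2-fold lower and 1 higher (13.6% of all genes tested were higher), with a median of 0.41 against 0.97 over all genes. Klf2, a factor that flow induces in endothelium, was at 111 against 1132 CPM, Btg2 at 125 against 1138 and Ier2 at 128 against 982. Cebpb was the one higher gene, at 180 against 80.8 CPM.

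Against 2304 epithelial cells the differences were small. Atf3 (83.7 against 170 CPM, 0.491-fold) and Dnajb1 (41.7 against 98.1 CPM, 0.425-fold) were at least 2-fold lower in mesenchymal cells, 2 of 9 members where 12.8% of 10002 genes were. None of the 9 was at least 2-fold higher, where 12.6% of genes were, and the share of members is close to the background. Fos was at 482 against 687 CPM, Junb at 435 against 689, and Hspa1a plus Hspa1b at 1427 against 1656. Egr1 was at 259 against 244 CPM, a 1.06-fold difference whose direction turned when mitochondrial, ribosomal-protein and haemoglobin genes were left out of the totals. Of 30 other immediate-early genes 4 were higher and 3 lower, and of 32 other heat-shock genes 3 were higher and 2 lower.

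After thinning to 1000 UMIs, at least 3 of the 6 immediate-early members were found in 53.2% of endothelial cells, 22.7% of epithelial cells and 13.0% of mesenchymal cells. The reverse order held for the heat-shock group against endothelium, with Hspa1a or Hspa1b in 64.2% of epithelial, 53.7% of mesenchymal and 44.9% of endothelial cells. A member of both groups was found in 43.0%, 49.8% and 36.7% of endothelial, epithelial and mesenchymal cells. In the blood-derived labels of the same library the same thinning found Hspa1a or Hspa1b in 19.6% of Thymocyte, 22.9% of B cell and 17.1% of Myeloid barcodes, and what share of that was free RNA was not tested.

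Across the 18 labels, log2 levels of Fos and Fosb had a Pearson r of 0.93, and of Fos and Egr1 of 0.88. Hspa1a and Hspa1b had an r of 0.96, reads they may share included. Dnajb1 followed neither, with an r of 0.02 with Fos and 0.25 with Hspa1a. The summed groups had an r of 0.42. The labels share 1 library and differ in depth, so these values are descriptive. The genes most like the summed immediate-early members, among 13878, were Zfp36 (r = 0.95), an RNA-decay factor that is itself an immediate-early gene, Socs3 (0.90), Fem1a (0.87), Tm4sf1 (0.86) and Cysltr1 (0.85). Those most like the summed heat-shock members were Map4k5 (0.93), Zfp37, Sh3rf1, Ice1 and Hoxb2 (each 0.91).

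Among the thymocyte labels of the thymocyte library, Junb and Egr1 were highest in DP-sig, the immature CD4 labels and AgoSel1. Dnajb1 ranged 1.98-fold over all labels. Junb was at 90.1 CPM in DN, the double-negative stage, 72.1 in DP-P and 81.9 in DP. It was at 349 CPM in Pre DP-sig, 799 in DP-sig and 1069 in Immature CD4-1, the highest of 16 thymocyte labels, and lower again in Mature CD4-1 (479 CPM) and Mature CD8-1 (310 CPM). Egr1 was at 16.8 CPM in DP, 47.5 in Pre DP-sig, 90.03 in DP-sig, 120 in Immature CD4-1 and 145 in AgoSel1, then 18.7 in Mature CD4-1. In the order of Egr1 levels AgoSel1 (64 UMIs), B+myeloid and Immature CD4-1 came first, and neighbours among these 3 did not differ beyond counting error.

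Against DP, the 295 DP-sig cells held Junb at 799 against 81.9 CPM (9.75-fold, 9.0 to 10.6), Egr1 at 90.03 against 16.8 CPM (5.37-fold, 4.31 to 6.67) and Fos at 140 against 32.6 CPM (4.31-fold, 3.63 to 5.09). Jun was at 109 against 118 CPM, a ratio of 0.923 whose interval of 0.773 to 1.10 held 1. Dnajb1 was at 50.4 against 38.4 CPM (1.31-fold, 1.00 to 1.69). Of 7946 genes tested, 8.14% were at least 2-fold higher in DP-sig. Of the 5 members above 10 CPM in both labels, 3 were (Fos, Junb and Egr1). Fosb, at 21.0 against 2.91 CPM, passed the filter only through DP-sig. Hspa1a had 0 UMIs in DP-sig and 31 in DP, Hspa1b 3 and 44, and Atf3 0 and 2. Set beside the stromal-library thymocytes, which were compared with the same DP cells, Jun was at 0.923-fold here and, in the cells assigned to DP, 11.6-fold there, and Junb at 9.75-fold and, in the cells assigned to DP, 4.98-fold.

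Of 24 other immediate-early genes that passed between DP-sig and DP, 5 were at least 2-fold higher and 3 lower, where 7.93% of all genes tested were lower. Nr4a1, an orphan receptor that reports T cell receptor signal strength, was at 338 against 24.1 CPM (14.0-fold), Nr4a3 at 79.2 against 6.19 CPM (12.8-fold) and Nr4a2 at 65.2 against 18.8 CPM (3.47-fold). Socs3 (2 UMIs against 435), Sgk1 (21.7 against 70.2) and Btg2 (841 against 1846) were lower. Nr4a3 passed the filter only through DP-sig and Socs3 only through DP, and the counts include both. Of 27 other heat-shock genes 6 were higher and 0 lower, led by Hsp90ab1 at 1056 against 389 CPM.

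**Figure D5:**
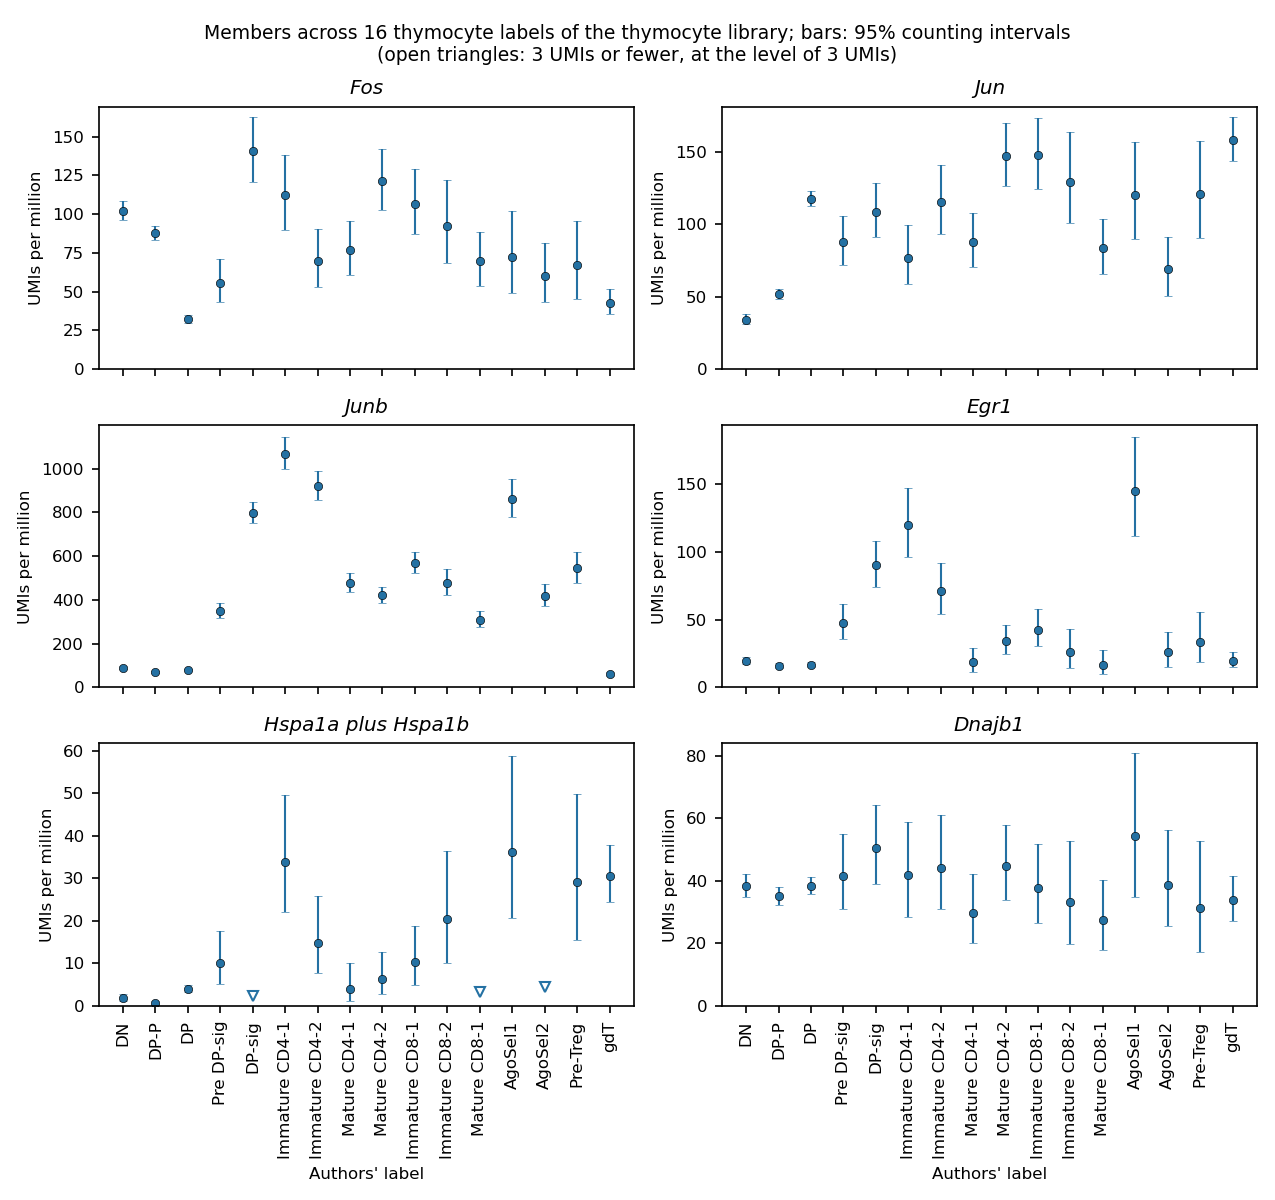
Levels (CPM, linear axes from 0) of Fos, Jun, Junb, Egr1, Hspa1a plus Hspa1b and Dnajb1 in 16 thymocyte labels of the thymocyte library, with 95% counting intervals. Junb and Egr1 are high in DP-sig, the immature CD4 labels and AgoSel1, Fos is lowest in DP, and Dnajb1 stays between 27.4 and 54.3.

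Fos had a second high point early on, at 102 CPM in DN and 87.9 in DP-P, the label next to it, before its minimum of 32.6 CPM in DP and 140 CPM in DP-sig. Jun ran the other way there, at 34.2 CPM in DN, 52.0 in DP-P and 118 in DP, and was highest among thymocyte labels in gdT at 158 CPM. Fosb ran from 1.97 CPM (2 UMIs) in Mature CD4-1 to 54.3 CPM (24 UMIs) in AgoSel1. Dnajb1 lay between 27.4 and 54.3 CPM in the 16 labels, with AgoSel1 over Mature CD8-1 at 1.98-fold (1.09 to 3.59), and no neighbours in its order were further apart than counting error. Hspa1a plus Hspa1b reached 36.2 CPM in AgoSel1 (16 UMIs), 33.9 CPM in Immature CD4-1 and 30.5 CPM in gdT, and was at 0.58 CPM in DP-P. Atf3 had at most 1.10 CPM (3 UMIs, gdT).

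The cells of that library that are not thymocytes, labelled B+myeloid, stood above every thymocyte label for 6 of the 9 members. Fos was at 579 CPM, Jun at 315, Fosb at 261, Atf3 at 118, Hspa1a at 127 and Hspa1b at 77.4. Egr1 (141 CPM) was just below AgoSel1, and Junb (394 CPM) was below 10 thymocyte labels.

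Split by which marker list had more UMIs, B-lineage and myeloid cells could be set side by side between libraries. Over all genes tested the median ratio of the stromal over the thymocyte library was 1.36 for B-lineage and 0.79 for myeloid cells, so the ratios below are read against those. For Jun they were 1.73 and 4.23, for Fos 0.170 and 0.576, and for Junb 0.282 and 0.536. In 34 B-lineage cells of the thymocyte library Fos was at 610 CPM, against 104 CPM in 89 B cells of the stromal library. Junb was at 557 against 157 CPM and Egr1 at 148 against 51.5, while Jun was at 276 against 477. In 114 myeloid cells of the thymocyte library Hspa1a plus Hspa1b was at 216 CPM, against 154 CPM in 403 stromal-library myeloid cells, and Jun was at 231 against 978. The cells compared were of different kinds. Stromal-library B cells held Mki67, a gene of dividing cells, at 777 CPM and Ms4a1, of mature B cells, at 7.61 CPM, against 24.3 and 316 CPM. Stromal-library myeloid cells held S100a9 at 84097 CPM and no C1qa, and the others held S100a9 at 7044 and C1qa at 3965 CPM. The part of cell kind in these differences was not tested.

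Genes whose levels were most like the summed immediate-early members over 17 labels of the thymocyte library, among 10747, were Crlf2 (r = 0.94), Tgfb1 (0.94), Iffo2, Arpc3 (each 0.91) and Rnaset2 (0.90). For the summed heat-shock members they were Dock4 (0.90), C1qc (0.88), Fcmr (0.88), Csf2ra and Pfkfb4 (each 0.87). C1qc, Csf2ra and Fcmr are genes of myeloid and B cells, and the B+myeloid label is the highest point of the heat-shock sum.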

How the data were processed

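The deposited matrices hold whole-number counts of UMIs per gene and cell for the stromal and the thymocyte library, made with Cell Ranger 8.0.0 on mRatBN7.2, per the submitters' processing notes. Cell labels and the percent of mitochondrial UMIs were deposited by the authors with Seurat 5.3.0, per the same notes, and that percent equals the share of mt-Rnr1 and mt-Rnr2. The third sample, a spatial section, was not analysed here. The annotation and the authors' cell filter are not given in the sources used here.

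The members and gene lists were chosen with earlier results of these data known. Cells were grouped by the authors' projected label, else by their initial cluster. Counts were summed per group, divided by the group's total and given per 1000000 (CPM), with exact Poisson intervals. Shares of cells have exact Clopper-Pearson intervals and ratios exact conditional binomial ones, at 95%. With 1 library per group no test was made. A gene was tested for a 2-fold difference where the mean CPM of both sides was at least 10, and a side under 3 UMIs was set to 3 UMIs. Labels of at least 50 cells were described. No doublet caller was run. Stages were assigned by multinomial likelihood over 300 genes, members and listed genes left out. Genes outside the members were named from the 3 highest and 3 lowest ratios of each list, the 5 highest and 5 lowest ratios of all genes, and the 5 genes most like each summed group by Pearson r of log2(CPM + 1). Genes shown only to describe a set of cells (Apoe, S100a9, C1qa, Mki67, Ms4a1) were chosen after seeing the data. The calls were tested on simulated data. The software was matplotlib 3.10.9, pandas 2.3.3, SciPy 1.17.1 and NumPy 2.4.6 under Python 3.11.15, with random seed 11. Alternatives changed the cells kept, the scaling, the depth, the labels and the stages compared.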

Additional observations from a re-analysis of the deposited data

Results flagged for a closer look

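Barcodes of the stromal library to which the authors gave no label held member RNA that no comparison used. In these 2934 barcodes, with a median of 1219.5 UMIs, the summed immediate-early members were at 1535 CPM and the summed heat-shock members at 912 CPM, above the limit that a count of 0 allows. The 2039 barcodes with at most 500 genes held 353 and 222 CPM, and the 895 with more held 1959 and 1159 CPM.

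In B-lineage cells the ratio of the stromal over the thymocyte library lay below 1, by more than counting error, for 4 members that lay above 1 in thymocytes. It was 0.170 for Fos, 0.282 for Junb, 0.348 for Egr1 and 0.303 for Fosb, from 89 and 34 cells. Over all genes tested the median of that ratio was 1.36, and 13.9% of 8324 genes were at least 2-fold lower. In myeloid cells, 403 and 114, the ratio was below 1 in the same way for 6 members. It was 0.576 for Fos, 0.536 for Junb, 0.532 for Egr1, 0.779 for Hspa1a, 0.591 for Hspa1b and 0.308 for Atf3. Between thymocytes with at most 10 stromal UMIs and DP cells, Atf3 had too few UMIs for the filter. Over all genes tested the myeloid ratio had a median of 0.79, close to that of Hspa1a, so most genes lay below 1. At least 2-fold lower were 26.3% of 8516 genes, and of the 6 members only Atf3. Fos, Junb, Egr1, Hspa1a and Hspa1b stood at percentiles 31.9, 28.7, 28.5, 49.0 and 33.1 of all genes tested, and Atf3 at 15.6. With 1 library on each side the difference between cell types was not tested. The B-lineage cells of the libraries also differed in Mki67 and Ms4a1, and the myeloid cells in S100a9 and C1qa.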

How the results depend on the processing

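No paired analysis was possible because a single sample stands for every group. Of 502 alternative values for 65 results, 276 moved by less than counting error, 220 moved further and 6 changed direction, and the cause of none was tested. Intervals at these depths are narrow, so many moves are small.

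For thymocytes of the stromal over the thymocyte library, the summed immediate-early ratio (6.78) was 5.81 without mitochondrial, ribosomal-protein and haemoglobin genes in the totals, 7.46 with under 3 stromal UMIs, 8.32 in cells with a Rag1 UMI, 9.96 against DP alone and 5.42 against the stage mix. The summed heat-shock ratio (18.3) was 16.7 at or below the median mitochondrial share, 11.6 as a mean of cells' CPM, 15.7 with the reduced totals, 12.9 after thinning, 9.97 with under 3 stromal UMIs, 21.2 with Rag1 and 16.8 against the stage mix. Settings chosen after seeing the data gave, for at most 10 stromal UMIs, a heat-shock ratio of 8.71, or 8.92 against DP and 8.23 against the stage mix, and immediate-early ratios of 10.3 and 6.04. With no stromal UMI against DP the ratios were 10.95 (immediate-early) and 9.21 (heat-shock), where the median over all genes tested was 1.42.

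For mesenchymal over epithelial cells, the immediate-early ratio (0.731) was 0.724 below the 99th percentile of UMIs, 0.689 with reduced totals and 0.747 by initial cluster. The heat-shock ratio (0.837) was 0.778 at or below and 0.940 above the median mitochondrial share, 0.789 with reduced totals and 0.853 by initial cluster. The members at least 2-fold apart went from 2 to 1 in the cells of low mitochondrial share, and Egr1 turned to 0.999 with reduced totals.

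For mesenchymal over endothelial cells, the immediate-early ratio (0.282) was 0.277 at low mitochondrial share, 0.287 as a mean of cells' CPM, 0.280 with reduced totals, 0.287 after thinning and 0.292 by initial cluster. The heat-shock ratio (1.17) was 1.11 at low and 1.25 at high mitochondrial share, 1.27 as a mean of cells' CPM, 1.20 after thinning and 1.12 by initial cluster. For DP-sig over DP the immediate-early ratio (4.599) was 4.91 at high mitochondrial share.

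The first place of EC:vEC turned for Fos as a mean of cells' CPM (0.984 of the highest other label) and after thinning (0.914), for Egr1 after thinning (0.945), and for Atf3 with labels of at least 20 cells (0.760). That of TEC:early Pr for Hspa1b turned with those smaller labels (0.959).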

Other observations

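Labels of 20 to 49 cells in the stromal library held levels near or above those of the larger labels. In 35 cells labelled TEC:mimetic(muscle), epithelial cells named for muscle genes, Fos was at 2183 CPM, Atf3 at 829 CPM and Hspa1b at 1163 CPM. In 44 cells labelled TEC:aaTEC1, Hspa1a was at 1104 CPM and Fos at 1263 CPM. After thinning, the tenth of EC:vEC cells with the most immediate-early UMIs held 30.5% of them, against 55.4% in TMC2 and 58.5% in TMC3.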
